A study of Homo sapiens with 20 samples.

Results

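Mediator is the large multisubunit coactivator that links DNA-bound transcription factors to RNA polymerase II. Its members were taken here as every gene symbol made of MED, digits and an optional L, together with CDK8, CDK19 and CCNC. This rule found 33 of the 45372 gene symbols in the expression tables, and the same 33 were present in both tables. By the usual assignment, 11 belong to the head module, 9 to the middle, 5 to the tail and 7 to the kinase module, and MED14 is the scaffold that joins head, middle and tail.

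The study used siRNA to lower HUWE1, a large HECT-type E3 ubiquitin ligase, in HEK293T cells, a transformed line derived from human embryonic kidney that carries the SV40 large T antigen. There were 5 groups of 4 biological replicates, each a stranded poly(A) mRNA library: non-targeting siRNA and HUWE1 siRNA of a first series of libraries (set 1), and a second table holding HUWE1 siRNA set 2, HUWE1 siRNA set 3 and 1 non-targeting group that serves both sets. The labels do not say how the HUWE1 siRNAs of the 3 sets differ, nor the time or dose of treatment, and all groups share the same parental line with no genotype change. Expression was given as TPM (a transcript share scaled for transcript length), normalized separately in each table, so set 1 was never tested against sets 2 and 3. Because every library sums to the same total, the read depth behind each value is unknown. The labels call the replicates biological without saying whether they were separate cultures, so p-values measure the spread between these libraries.

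In the complex, the head and middle modules contact RNA polymerase II and the general transcription factors, the tail receives most activator contacts, and the kinase module binds reversibly and, while bound, hinders the contact with the polymerase. The kinase module holds CDK8 or its paralog CDK19 with cyclin C, MED12 or MED12L, and MED13 or MED13L. MED26 takes the place of the kinase module on the core complex and brings in elongation factors, and MED1 is the contact of nuclear receptors.

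The siRNA lowered its target in all 3 sets. HUWE1 stood at 157.3, 162.3, 154.5 and 154.8 TPM in the non-targeting libraries of set 1 and at 86.1, 86.9, 83.5 and 83.6 TPM after HUWE1 siRNA. In the second table it stood at 161.7, 166.7, 165.5 and 159.1 TPM in the controls, at 95.6, 94.3, 91.6 and 96.8 TPM in set 2 and at 79.9, 89.7, 80.3 and 89.3 TPM in set 3. No treated library overlapped a control, and the remaining mean level was 54.1%, 57.9% and 51.9% of the control in sets 1, 2 and 3. HUWE1 was also lower in every library of set 3 than in any of set 2, by a log2 difference of -0.16 (limma, adjusted p = 0.134), a separation seen in 5.05% of all genes. Of the HEK293T markers examined, 8 of 8 were detected in every library (NEFL, a neurofilament chain, at 70.9 to 105.7 TPM), and the leukocyte gene PTPRC and the hepatocyte gene ALB did not exceed 0.0753 and 0.637 TPM. The fibroblast genes COL1A1 and LUM were at 5.60 to 11.4 and 1.56 to 7.71 TPM. The 4 controls of the second table were less alike (lowest pairwise r of log values 0.9797) than the libraries of the other groups (0.9919 to 0.9949).

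All 33 members were expressed above the filter of 1 TPM in at least 4 libraries of a table. In the control libraries their median was 39.5 TPM in the first table and 40.8 TPM in the second, against 17.3 and 17.9 TPM for all genes tested. The highest was MED1 at 137.7 ± 2.22 TPM (SD, n = 4) in the first table and 120.8 ± 16.4 TPM in the second. MED12L, the paralog of MED12, was lowest at 5.67 ± 0.523 and 4.37 ± 0.507 TPM, so the range spanned 24.3-fold and 27.6-fold. Most subunits sat close together: 22 and 23 of 33 lay between 20 and 70 TPM, and only MED12L and the head subunit MED17, at 6.13 ± 0.236 and 6.09 ± 0.409 TPM, were below 10 TPM. When the members were ordered by level, 21 of 32 neighbouring pairs in the first table and 27 of 32 in the second overlapped between libraries, so the order is resolved only in part. MED24, a tail subunit, was the largest exception to similar levels in both tables. It stood at 125.0 ± 3.47 TPM in one and 71.6 ± 2.56 TPM in the other. Its cause cannot be told, as the tables differ in their libraries as well as in their normalization.

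**Figure D1:**
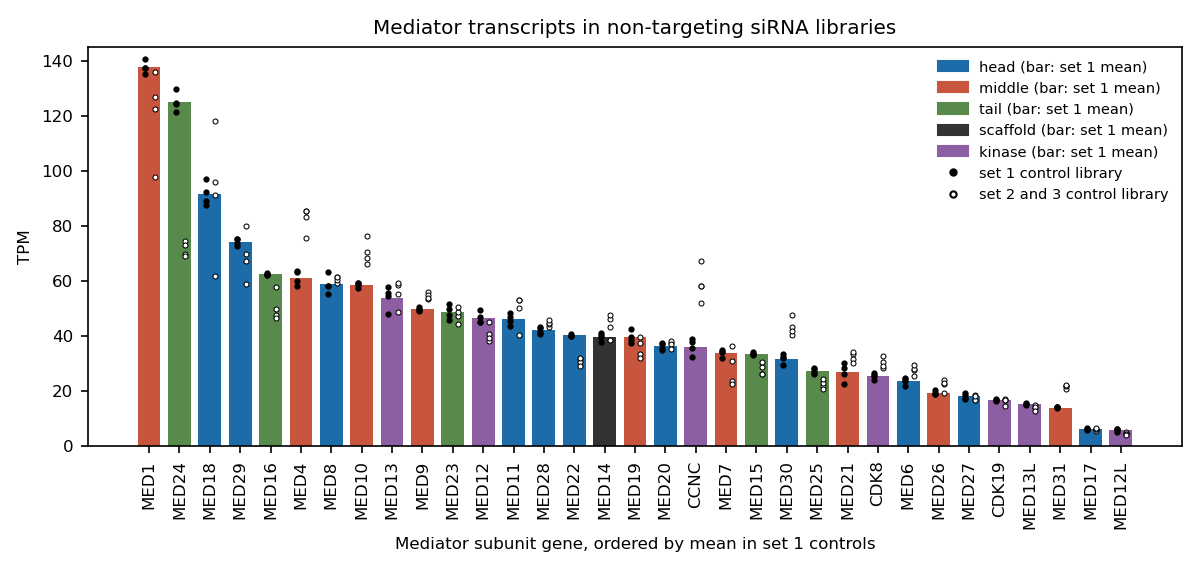
TPM of the 33 Mediator genes in the non-targeting libraries, ordered by level in set 1 and coloured by module; bars are set 1 means (n = 4), filled points the set 1 libraries and open points the libraries of the second table. MED1 is highest and MED12L lowest, and the open points of MED24 lie well below the filled ones.

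After HUWE1 siRNA of set 1, the falls were in 5 of 11 head and 4 of 9 middle subunits, beside 17.9% of all genes. The rises were in 1 of 11 head, 2 of 5 tail and 1 of 7 kinase subunits, beside 12.3%. With MED27 and MED29 counted in the tail, 1 of 7 tail subunits also fell. These small counts are a description. Of the 33 members, 13 passed the test (limma on log2(TPM + 1), Benjamini-Hochberg over 16057 genes, adjusted p under 0.05), 4 higher and 9 lower. The first count is 39.4% of the members beside 30.3% of all genes tested, with 12.3% of all genes higher and 17.9% lower, a share near that of genes at large. The median log2 fold change of the members was 0.01 and that of all genes -0.01, and the median size of the change was 0.0873 against 0.1002 on the same scale. Fold changes on the log2(TPM + 1) scale understate those of low genes. In bulk RNA, fewer cells of a type and less RNA per cell cannot be told apart.

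Set 2 and set 3, tested against their shared controls over 15860 genes, gave fewer calls. In set 2, 1 member passed, lower, beside 0.0126% of all genes (2 genes in all). These 2 genes were that member, MED4, and HUWE1, the siRNA target. In set 3, 7 passed (21.2%) beside 11.6% of all genes: 4 rose, beside 7.45%, and 3 fell, beside 4.15%. Set 3 compared directly with set 2 gave 2 members beside 0.517% of all genes, 1 higher (0.309% of all genes) and 1 lower (0.208%). Across the 4 comparisons 17 members passed at least once, 4 of them (MED4, MED10, MED19 and MED28) more than once, and 16 never.

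**Figure D2:**
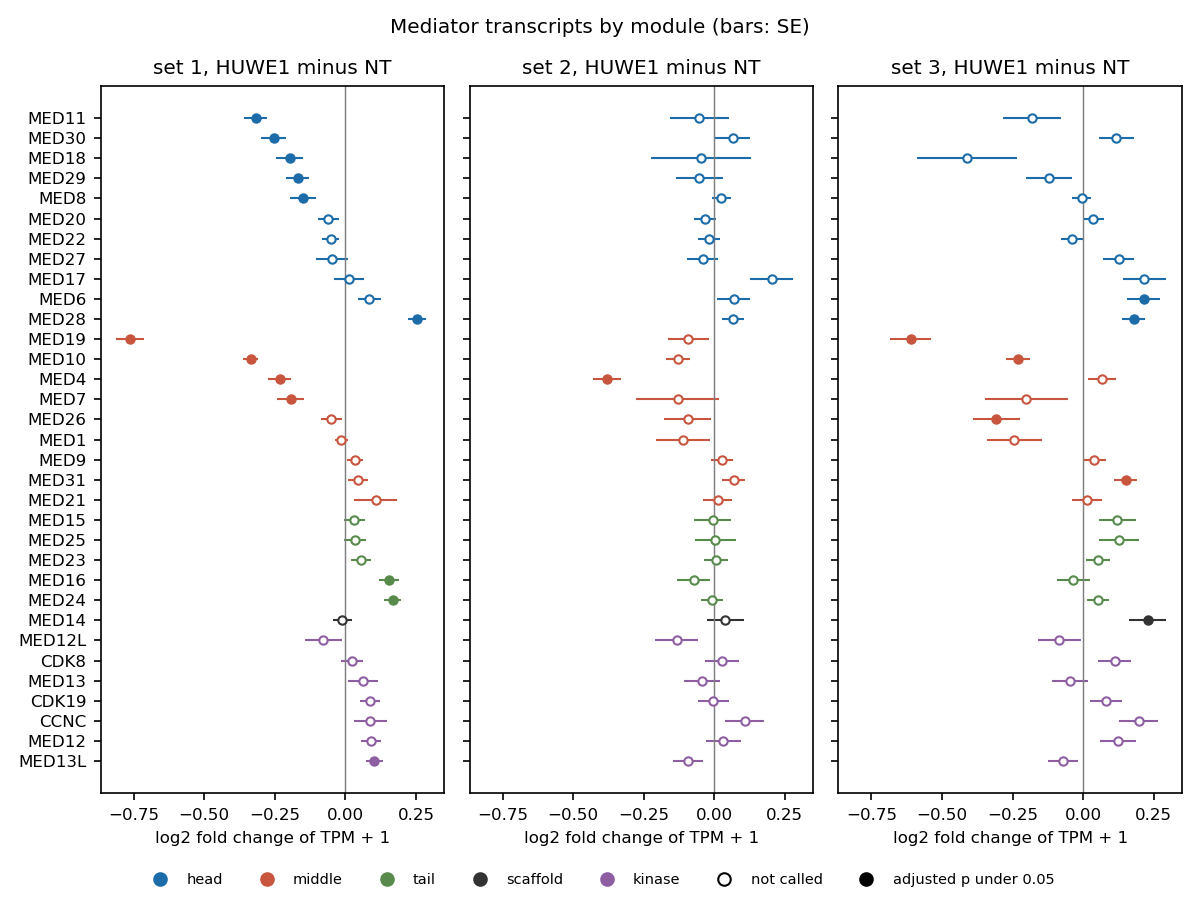
Log2 fold change on the log2(TPM + 1) scale of every Mediator member, by module, for set 1, set 2 and set 3 against their controls, with bars for the SE and filled points for adjusted p under 0.05 (limma). MED19 lies lowest in sets 1 and 3 (-0.76 and -0.61) and close to 0 in set 2 (-0.09), where MED4 is lowest (-0.38).

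The deepest fall was in MED19, a subunit of the middle module known, with MED26, as a contact of the REST repressor. Its transcript stood at 42.5, 39.7, 38.6 and 37.4 TPM in the controls of set 1 and at 24.4, 21.6, 22.1 and 23.5 TPM after HUWE1 siRNA. Every treated library was below every control, the mean was 57.9% of the control, and the log2 fold change was -0.76 (SE 0.0482, limma adjusted p = 1.35e-05), the 26th lowest of 16057 genes. In the second table MED19 stood at 39.6, 33.2, 37.3 and 31.8 TPM in the controls. Set 3 had 20.8, 22.7, 24.8 and 23.1 TPM, again below every control, with a log2 fold change of -0.61 (SE 0.0724, limma adjusted p = 0.00199), the 113th lowest of 15860 genes. Set 2 had 34.4, 30.8, 34.3 and 32.9 TPM, which overlapped the controls. There the log2 fold change was -0.09, with a 95% interval of -0.25 to 0.06 (limma adjusted p = 0.677). The difference between the treated groups was itself past the threshold: set 3 was lower than set 2 by a log2 difference of -0.52 (SE 0.0724, limma adjusted p = 0.0086), with no overlap between libraries. HUWE1 was also lower in set 3 than in set 2, as given above, and the part of that difference in the MED19 result was not tested.

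MED4, a core middle subunit that pairs with MED9, fell in sets 1 and 2 and was not called in set 3. It stood at 58.3, 63.6, 63.1 and 59.8 TPM in the controls of set 1 and at 53.2, 48.4, 53.5 and 52.6 TPM after HUWE1 siRNA, with a log2 fold change of -0.23 (SE 0.0406, limma adjusted p = 0.00249). The controls of the second table had 75.6, 85.3, 83.2 and 85.4 TPM. Set 2 had 60.2, 62.2, 63.8 and 65.6 TPM, all below the controls, at 76.4% of their mean and a log2 fold change of -0.38 (SE 0.0493, limma adjusted p = 0.0347), with the second lowest p of 15860 genes. Set 3 had 86.8, 80.7, 88.6 and 88.8 TPM, which overlapped the controls, with a log2 fold change of 0.07 and a 95% interval of -0.04 to 0.17 (limma adjusted p = 0.353). MED4 was thus higher in set 3 than in set 2, by 0.45 on the log2 scale (SE 0.0493, limma adjusted p = 0.00318), opposite to MED19. The set 2 call of MED4 was kept in 8 of 23 alternative analyses and its adjusted p reached 0.351 when only the controls and set 2 were fitted, with the log2 fold change between -0.42 and -0.36 throughout. It was lost in 10 of the 12 analyses that left out 1 library, and the difference between set 3 and set 2 passed in 23 of 23 for both MED4 and MED19.

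The ratio of MED19 to MED4, both per length, restates these values within single libraries. As the members were called in opposite directions between set 3 and set 2, the ratio is no separate support. It averaged 0.648 ± 0.0545 (SD, n = 4) in the controls of set 1 and 0.441 ± 0.0197 after HUWE1 siRNA. In the second table it was 0.434 ± 0.0685 in the controls, 0.527 ± 0.0355 in set 2 and 0.265 ± 0.0196 in set 3. Set 3 libraries, at 0.240 to 0.281, were all below the controls, at 0.372 to 0.524, which the set 2 libraries, at 0.496 to 0.572, overlapped.

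MED10, a middle subunit among the most conserved of the complex, was the single member whose treated libraries lay all below the controls in each of the 3 sets. In set 1 it went from 57.5, 59.3, 58.3 and 59.0 TPM to 47.3, 44.5, 46.3 and 46.7 TPM, a log2 fold change of -0.34 (SE 0.0268, limma adjusted p = 6.2e-05). The controls of the second table had 76.3, 66.0, 68.4 and 70.4 TPM. Set 3 had 59.6, 58.5, 59.8 and 60.8 TPM, a log2 fold change of -0.23 (SE 0.0428, limma adjusted p = 0.0138), and set 2 had 64.2, 63.9, 63.7 and 64.7 TPM, a log2 fold change of -0.13 that missed the threshold (limma adjusted p = 0.492). Complete separation from the controls was found in set 1 for 31.7% of all genes (13.3% higher, 18.4% lower) and for 5 members higher and 8 lower. In set 2 it was found for 3.69% of all genes (1.99% higher, 1.71% lower) and for 1 member higher and 2 lower, and in set 3 for 17.2% (11.2% higher, 6.03% lower) and for 6 members higher and 2 lower. Between set 3 and set 2, 13.2% of all genes were separated (8.13% higher, 5.05% lower), and 3 members higher and 2 lower. Sets 2 and 3 share their controls, so their separations are not independent of each other. The share of all genes that lay below the controls in all 3 sets is not given here. Whether MED10 is unusual in this cannot be read from the shares above.

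The promoters of these 3 middle subunits are printed because MED19 and MED10 had the deepest called falls of set 1 and MED4 that of set 2. They are RefSeq windows of build GRCh38.p14, 300 bases long, from 250 before to 50 after a transcript start, written 5′ to 3′ on the gene's strand. Capitals mark the CCAAT box (CCAAT or, on the other strand, ATTGG) and the GC box (GGGCGG or CCGCCC). MED19 lies on the minus strand at chr11:57712166-57712465, MED10 on the minus strand at chr5:6378498-6378797 and MED4 on the minus strand at chr13:48095055-48095354. In GENCODE release 29 (GRCh38) the genes span chr11:57703714-57712323, chr5:6371881-6378594 and chr13:48053323-48095131, so the outer end of each gene lies inside its window, upstream of the RefSeq start.
MED19: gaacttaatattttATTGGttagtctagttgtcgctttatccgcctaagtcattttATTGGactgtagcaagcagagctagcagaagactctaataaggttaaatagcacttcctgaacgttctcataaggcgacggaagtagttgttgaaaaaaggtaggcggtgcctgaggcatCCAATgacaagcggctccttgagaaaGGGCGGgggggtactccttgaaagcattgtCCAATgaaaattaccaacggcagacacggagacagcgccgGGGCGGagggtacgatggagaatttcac
MED10: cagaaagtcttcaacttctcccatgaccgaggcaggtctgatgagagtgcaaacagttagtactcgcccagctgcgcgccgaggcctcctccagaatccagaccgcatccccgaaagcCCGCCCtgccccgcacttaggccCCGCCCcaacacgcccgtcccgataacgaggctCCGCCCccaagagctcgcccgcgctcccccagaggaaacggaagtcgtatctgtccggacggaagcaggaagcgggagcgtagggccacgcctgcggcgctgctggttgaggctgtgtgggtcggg
MED4: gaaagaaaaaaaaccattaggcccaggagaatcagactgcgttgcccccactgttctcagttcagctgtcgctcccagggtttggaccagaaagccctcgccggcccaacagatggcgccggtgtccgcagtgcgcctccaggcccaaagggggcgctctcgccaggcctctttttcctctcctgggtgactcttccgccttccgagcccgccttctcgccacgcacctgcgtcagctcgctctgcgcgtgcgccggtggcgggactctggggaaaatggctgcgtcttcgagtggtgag
The MED19 window holds 4 CCAAT boxes, at -236, -194, -74 and -18 from the start, and GC boxes at -48 and 23. As many CCAAT boxes occur in 0.99% of the 35116 windows of the same length, and in 0 other windows of a member. The MED10 window holds 3 GC boxes, at -132, -109 and -76, and no CCAAT box. The MED4 window holds neither. Windows were matched for 25 of the 33 members, 30 windows in all. CCAAT was present in 11 of the 30 and in 34.61% of all windows, and GGGCGG in 18 of the 30 and in 44.95%. Of the other motifs searched on both strands, the E-box CACGTG was in 2 of the 30 (7.26% of all), the cyclic AMP response element TGACGTCA in 1 (1.85%), the ETS core CCGGAAG in 8 (10.26%) and the YY1 core AAGATGG in 6 (5.84%). None of these 4 was in the windows shown. A match is a description of the letters and not of factor binding.

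**Figure D3:**
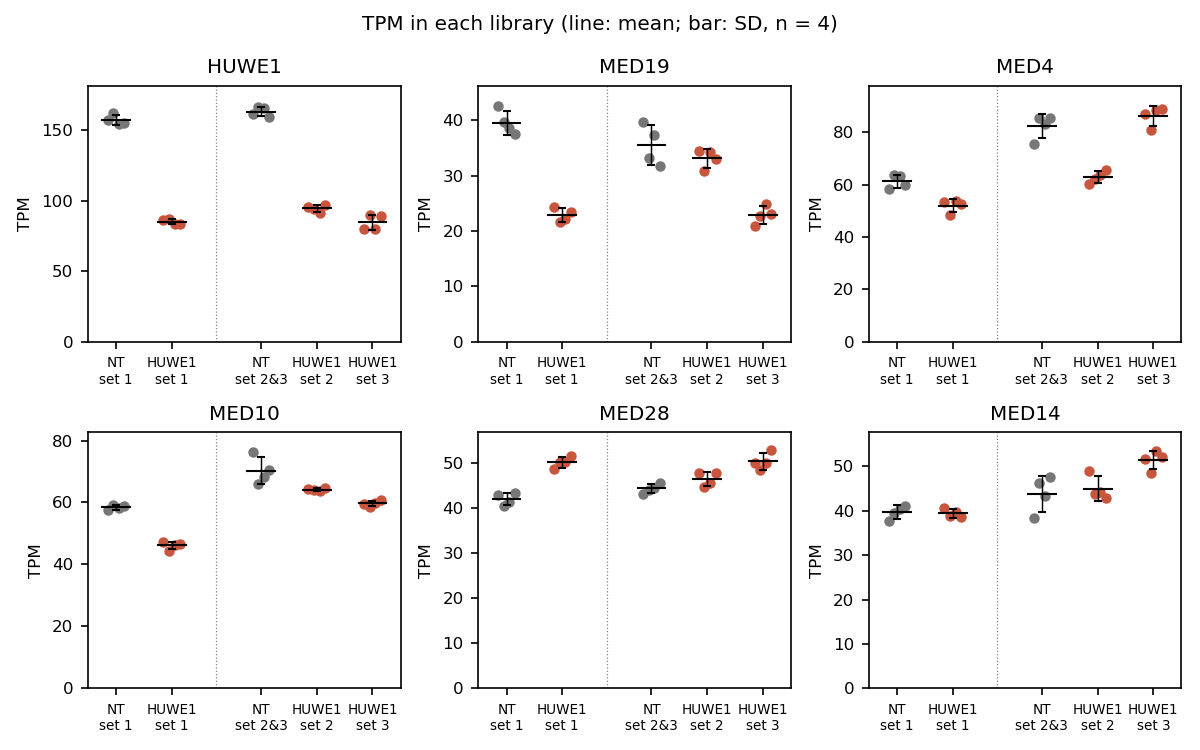
TPM of HUWE1 and of the Mediator subunits MED19, MED4, MED10, MED28 and MED14 in each of the 20 libraries by group, with 1 point per library, a line at the group mean and bars for the SD (n = 4). MED19 is low in set 1 and set 3 after HUWE1 siRNA (20.8 to 24.8 TPM) but not in set 2 (30.8 to 34.4 TPM), and MED4 is low in set 1 and set 2.

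Among head subunits 6 of 11 passed in set 1, 5 lower and 1 higher. The one that rose was MED28, also known as a merlin- and Grb2-binding protein. It went from 42.9, 40.5, 41.3 and 43.3 TPM to 48.7, 50.1, 50.3 and 51.7 TPM, a log2 fold change of 0.25 (SE 0.0306, limma adjusted p = 0.0004). MED28 also rose in set 3, from 43.1, 44.1, 44.6 and 45.6 TPM in the controls to 50.01, 48.5, 49.9975 and 53.0 TPM (0.18 on the log2 scale, limma adjusted p = 0.0231). It was the only member that rose in both, with no overlap in either. In set 2 it had 47.9, 44.7, 45.6 and 47.7 TPM, a log2 fold change of 0.07 (limma adjusted p = 0.618) with overlap. GENCODE release 29 lists 8 processed pseudogenes of MED28, none of which was found by symbol in either expression table. Reads shared with them would make its level uncertain. Pseudogenes of MED6, MED13, MED14, MED15 and CDK8 are also listed there and were likewise not found. FAM184B on the opposite strand overlaps 32.4% of its principal transcript and was listed at a median of 0.280 and 0.286 TPM in the 2 tables.

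The 5 head subunits that fell in set 1 did so by less than MED19. MED11, which pairs with MED22, went from 48.3, 46.8, 45.3 and 43.4 TPM to 38.9, 35.7, 36.2 and 35.8 TPM (log2 fold change -0.32, limma adjusted p = 0.000513). MED30 went from 32.3, 29.2, 31.8 and 33.4 TPM to 25.9, 27.1, 25.4 and 27.2 TPM (-0.25, limma adjusted p = 0.00221). Neither had any treated library within the control range. MED11 shares 10.2% of its bases with CXCL16 on the opposite strand, which was at a median of 19.8 TPM in that table. MED18, which with MED20 forms the movable jaw of the head, went from 97.0, 88.9, 92.3 and 87.7 TPM to 84.4, 76.5, 83.7 and 74.3 TPM (-0.20, limma adjusted p = 0.0117). MED29, sometimes placed in the tail, went from 75.4, 75.3, 72.5 and 73.6 TPM to 71.1, 66.8, 63.8 and 62.0 TPM (-0.17, limma adjusted p = 0.011). Again no libraries overlapped. MED8, which anchors the jaw, went from 55.2, 63.3, 58.1 and 58.3 TPM to 56.5, 52.1, 51.2 and 51.4 TPM (-0.15, limma adjusted p = 0.0318). Its groups overlapped (two-sided exact permutation p = 0.0571, where the smallest that 4 against 4 libraries allow is 0.0286), and the call was kept in 6 of 17 alternative analyses.

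In set 3, 2 head subunits passed, both higher, MED28 and MED6. MED6, a conserved subunit near the junction with the middle, stood at 27.4, 25.4, 27.8 and 29.3 TPM in the controls and 31.1, 30.1, 34.2 and 32.7 TPM in set 3, a log2 fold change of 0.21 (limma adjusted p = 0.0388), and its libraries did not overlap. In set 2 it had 31.4, 27.2, 28.6 and 28.3 TPM, and in set 1 its log2 fold change was 0.08 (limma adjusted p = 0.142). MED17, the head scaffold, and MED27 also had all libraries of set 3 above the controls, with log2 fold changes of 0.22 and 0.13 that missed the threshold (limma adjusted p = 0.0698 and 0.133). The principal transcript of MED17 shares 41.9% of its exonic bases with an overlapping same-strand gene, AP001273.2, so the 2 cannot be fully separated. AP001273.2 was at a median of 3.37 and 5.25 TPM in the 2 tables, beside 6.13 and 6.09 TPM for MED17 in the controls.

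The middle module had 4 of 9 subunits lower in set 1 and none higher: MED19, MED10, MED4 and MED7. MED7, which with MED21 forms the hinge of the module, went from 34.8, 34.0, 34.0 and 32.0 TPM to 31.1, 27.5, 31.0 and 27.8 TPM (log2 fold change -0.19, limma adjusted p = 0.0122), without overlap. The other middle subunits, MED1, MED9, MED21, MED26 and MED31, had log2 fold changes between -0.05 and 0.11 and did not pass. In MED1 the estimate was -0.01 with a 95% interval of -0.07 to 0.04.

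In set 3 the middle module held 3 lower members, MED19, MED10 and MED26, and 1 higher, MED31. MED26 stood at 23.8, 22.6, 23.0 and 19.4 TPM in the controls and at 19.7, 19.5, 15.8 and 16.1 TPM in set 3, a log2 fold change of -0.31 (SE 0.083, limma adjusted p = 0.038). Its groups overlapped through the control with 19.4 TPM (two-sided exact permutation p = 0.0857), and in set 1 its log2 fold change was -0.05. MED26 had 19.3, 20.8, 20.8 and 21.9 TPM in set 2, a log2 fold change of -0.09 (limma adjusted p = 0.706). AC008764.1, on the same strand, shares 45.6% of its principal transcript at a median of 0.157 and 0.138 TPM. MED31, a small conserved subunit, went from 21.7, 20.6, 21.9 and 22.1 TPM to 23.3, 24.1, 23.5 and 25.3 TPM (0.15 on the log2 scale, limma adjusted p = 0.0364). All libraries of set 2 also exceeded the controls, at 22.8, 22.4, 22.6 and 23.0 TPM, with a log2 fold change of 0.07 (limma adjusted p = 0.608). The principal transcript of MED31 shares 74.2% of its bases with the opposite-strand gene TXNDC17, whose log2 fold change in set 3 was 0.05 (limma adjusted p = 0.571). TXNDC17 was at a median of 21.0 and 32.4 TPM in the 2 tables, beside 13.9 and 21.6 TPM for MED31 in the controls. The library kit keeps strand, but no source used here says whether the counting used it.

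In the tail 2 of 5 subunits rose in set 1, and all 5 estimates were positive, beside 7476 of the 16057 genes tested. Without HUWE1 siRNA replicate 2 the estimate of MED15 was -0.00 on the log2 scale. MED24, a large tail subunit, went from 121.3, 129.7, 124.3 and 124.7 TPM to 140.1, 147.2, 138.2 and 136.7 TPM (log2 fold change 0.17, limma adjusted p = 0.00292). MED16, also of the tail, went from 62.1, 62.5, 63.0 and 62.0 TPM to 66.8, 73.6, 66.3 and 71.8 TPM (0.15, limma adjusted p = 0.00932). Both were above every control. MED15, MED23 and MED25, the partners of SREBP, ELK1 and VP16-type activators, had log2 fold changes of 0.03, 0.06 and 0.03 and did not pass. No tail subunit was called in set 2 or set 3 by limma, nor had any an unadjusted p under 0.05 there (0 of 5 in both), and MED24 and MED16 had log2 fold changes of 0.05 and -0.03 in set 3.

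Where MED27 and MED29 are counted with the tail, as in some structural work, the set 1 counts become 1 higher and 4 lower of 9 head subunits and 2 higher and 1 lower of 7 tail subunits, of which 5 had positive and 2 negative estimates. The scaffold MED14 was not called in set 1, with 37.7, 39.6, 40.4 and 41.2 TPM in the controls, 40.6, 38.8, 39.6 and 38.5 TPM after HUWE1 siRNA and a 95% interval of the log2 fold change of -0.09 to 0.06. In set 3 it rose, from 38.5, 46.2, 43.2 and 47.5 TPM to 51.6, 48.5, 53.5 and 52.1 TPM (0.23 on the log2 scale, SE 0.0656, limma adjusted p = 0.0436), with no overlap. Set 2 had 49.1, 43.7, 44.1 and 42.9 TPM for MED14, a log2 fold change of 0.04.

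The summed level of a module follows from these members and is given without a test. In set 1 the middle sum went from 440.1 ± 3.40 TPM (SD, n = 4) to 399.2 ± 9.11 TPM, and the head sum from 468.2 ± 6.47 to 433.9 ± 9.93 TPM. The tail sum went the other way, from 297.0 ± 5.02 to 323.2 ± 10.2 TPM, and the kinase module from 199.6 ± 9.51 to 209.5 ± 4.31 TPM. The sum over all 33 went from 1445 ± 13.5 to 1405 ± 9.95 TPM. In the second table the middle sum was 467.7 ± 27.3 TPM in the controls, 428.5 ± 19.9 TPM in set 2 and 424.7 ± 6.06 TPM in set 3, while the tail sum was 219.8 ± 4.39, 216.9 ± 7.04 and 227.4 ± 2.48 TPM.

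In the kinase module 1 of 7 members passed in set 1 and none in sets 2 and 3. That member was MED13L, a paralog of the MED13 subunit that tethers the kinase to the core, which rose from 15.2, 15.01, 15.3 and 15.6 TPM to 16.4, 16.5, 16.6 and 16.4 TPM (log2 fold change 0.10, limma adjusted p = 0.0291). No library overlapped, and the call was kept in 11 of 17 alternative analyses. In sets 2 and 3 limma called 0 of 7, with 0 and 1 (CCNC, cyclin C) at an unadjusted p under 0.05. CCNC had a log2 fold change of 0.20 in set 3 (limma adjusted p = 0.0738) and 0.09 in set 1.

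The kinases themselves were not called in any of the 4 comparisons with TPM as deposited. CDK8 had 23.9, 25.7, 26.6 and 25.2 TPM in the controls of set 1 and 26.3, 24.8, 25.5 and 26.5 TPM after HUWE1 siRNA. The values of CDK8 in the second table were 30.3, 28.5, 28.99 and 32.5 TPM in the controls, 33.2, 30.4, 29.4 and 29.7 TPM in set 2 and 31.7, 30.02, 34.9 and 33.7 TPM in set 3. CDK19 had 16.7, 16.9, 16.8 and 16.2 TPM in the controls of set 1 and 18.3, 17.9, 16.9 and 17.8 TPM after HUWE1 siRNA, where every treated library was above the controls, with a log2 fold change of 0.09 (limma adjusted p = 0.0822). The second table gave CDK19 at 16.6, 17.1, 16.7 and 14.6 TPM in the controls, 16.6, 15.4, 16.1 and 16.8 TPM in set 2 and 17.9, 17.4, 17.6 and 16.0 TPM in set 3. CDK8 thus exceeded CDK19 in every library, and their ratio was 1.52 ± 0.0707 in the controls and 1.45 ± 0.0544 after HUWE1 siRNA in set 1. The ratio was 1.86 ± 0.248, 1.89 ± 0.113 and 1.90 ± 0.183 in the controls, set 2 and set 3.

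Both other paralog pairs were more uneven. MED12, which activates the kinase, had 45.1, 49.5, 46.8 and 45.1 TPM in the controls of set 1 and 49.2, 51.0, 47.9 and 50.3 TPM after HUWE1 siRNA (log2 fold change 0.09, limma adjusted p = 0.0856). MED12L had 4.89, 5.98, 5.95 and 5.85 TPM and 5.58, 5.09, 5.39 and 5.15 TPM in the same groups. The MED12 to MED12L ratio was 8.27 ± 0.681 in those controls and 9.38 ± 0.606 after treatment. In the second table MED12 had 38.1, 40.7, 39.3 and 45.1 TPM in the controls, 45.7, 41.2, 42.1 and 38.0 TPM in set 2 and 44.5, 43.6, 43.0 and 46.6 TPM in set 3. MED12L there had 5.05, 4.23, 4.38 and 3.83 TPM in the controls, 4.11, 3.68, 3.81 and 3.94 TPM in set 2 and 4.28, 3.97, 3.64 and 4.32 TPM in set 3. IGSF10, on the opposite strand, overlaps 33.8% of the principal transcript of MED12L, at a median of 5.25 and 0.852 TPM in the 2 tables, which makes the level of this low gene uncertain.

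MED13 had 47.9, 54.5, 57.7 and 55.6 TPM in the controls of set 1 and 53.7, 55.6, 56.9 and 58.7 TPM after HUWE1 siRNA, which overlapped. The values of MED13 in the second table were 58.6, 55.2, 59.2 and 48.5 TPM in the controls, 52.5, 51.6, 53.4 and 57.1 TPM in set 2 and 57.2, 54.6, 50.7 and 51.5 TPM in set 3. MED13L had 14.8, 13.8, 14.1 and 12.7 TPM in the controls, 13.0, 12.2, 12.8 and 13.6 TPM in set 2 and 13.3, 13.1, 12.8 and 13.3 TPM in set 3. The MED13 to MED13L ratio stayed between 3.15 and 4.30 in all 20 libraries.

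**Figure D4:**
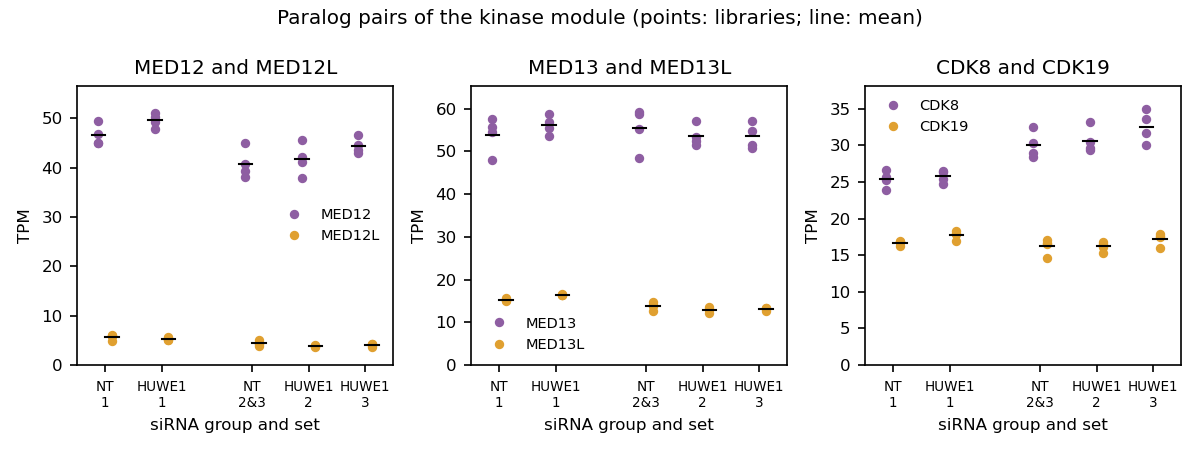
TPM of the kinase-module paralog pairs MED12 and MED12L, MED13 and MED13L, and CDK8 and CDK19 by siRNA group, with 1 point per library and a line at the group mean. The first-named gene of each pair is higher in every library, by 7.55 to 11.8 times for MED12, 3.15 to 4.30 times for MED13 and 1.38 to 2.22 times for CDK8.

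Set 1 and the other sets share no libraries, so their calls can be set side by side. Set 1 and set 3 had 3 members called in the same direction (MED19, MED10 and MED28), which is 3 of the 13 in set 1 and 3 of the 7 in set 3, and 0 called in opposite directions. Of the 15296 genes tested in both tables, 692 were called in the same direction in sets 1 and 3, which is 14.5% of the calls of set 1 and 38.2% of those of set 3, beside 23.1% and 42.9% for the members, and 92 were called in opposite directions. Set 1 and set 2 had 1, MED4, which is 1 of 13 and 1 of 1, beside 2 of all genes, MED4 itself and the siRNA target HUWE1. The sign of the log2 fold change was shared by 25 of 33 members between sets 1 and 3 and by 24 of 33 between sets 1 and 2 (75.8% and 72.7%), beside 63.8% and 61.9% of all genes. These shares are a description, and nothing particular to the members is read from them. The tail subunits and MED11, MED30, MED18, MED7, MED29, MED8 and MED13L were not among the shared calls. For these, log2 fold changes in set 3 were -0.18 for MED11, 0.12 for MED30, -0.41 for MED18, -0.20 for MED7, -0.12 for MED29, -0.00 for MED8 and -0.07 for MED13L, none past the threshold.

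The spread of the shared controls bears on those values. MED18 stood at 118.2, 91.3, 96.0 and 61.9 TPM in the 4 controls of the second table and at 75.5, 79.1, 57.4 and 59.1 TPM in set 3, so a log2 fold change of -0.41 had an SE of 0.179 (limma adjusted p = 0.127). MED1, MED7, MED12L, MED13L, MED16, MED19, MED26 and MED29 likewise had their highest control in replicate 1 and their lowest in replicate 4. Of these, MED19 and MED26 were called lower in set 3. The reverse, lowest in replicate 1 and highest in replicate 4, held for MED4, MED12, MED14, MED15, MED17, MED28, MED30 and CCNC. Of those, MED14 and MED28 were called higher in set 3. The set 3 count of 7 members (11.6% of all genes) was 14 without control replicate 4 (37%) and 3 without control replicate 1 (4.69%). Without control replicate 2 or 3 it was 2 (2.5% and 1.61%). Without set 2 replicate 3 or set 3 replicate 1 it was 3 (6.02% and 3.35%). Without set 3 replicate 4 it was 2 (1.03%), and without set 3 replicate 3 it was 1 (1.02%). The percentages are of all genes called in the same fit, and they moved in the same direction as the member count. MED19 passed in all 23 alternative analyses of set 3 and MED10 in 21, MED28 in 17, MED26 in 13, MED6 and MED31 in 12 and MED14 in 7.

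Scaling moved the balance of rises and falls. With median-of-ratios scaling the set 1 counts were 6 higher and 8 lower, adding MED12 and CDK19 to the higher ones, and in set 3 they were 3 and 3. With the mitochondrially encoded genes removed and TPM recomputed, the set 3 counts were 1 higher (MED28) and 3 lower (MED19, MED10 and MED26). The falls of MED19 and MED10 and the rise of MED28 in set 1 passed under all 17 alternative analyses. So did the set 1 falls of MED4, MED7, MED11, MED18, MED29 and MED30 and the rises of MED16 and MED24. Only the set 1 calls of MED8 and MED13L were lost in some, being kept in 6 and 11 of the 17.

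The members that rose in set 1 had longer transcripts, by their median, than those that fell, with ranges that overlapped. The 9 that fell had principal transcripts of 833 to 3653 bases (median 1833), and the 4 that rose had 2922 to 14615 bases (median 7174). Over all genes the corresponding medians were 2906 and 3081 bases. Spearman's rho between transcript length and log2 fold change over the 33 members was 0.503 in set 1, 0.01 in set 2 and 0.131 in set 3, beside 0.04, -0.107 and -0.053 over 15690, 15493 and 15493 genes. The points share the same 8 or 12 libraries and belong to modules of different length, with a median of 1995 bases in the head, 2022 in the middle, 3252 in the tail and 6795 in the kinase module, and the part of length in the module pattern was not tested.

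**Figure D5:**
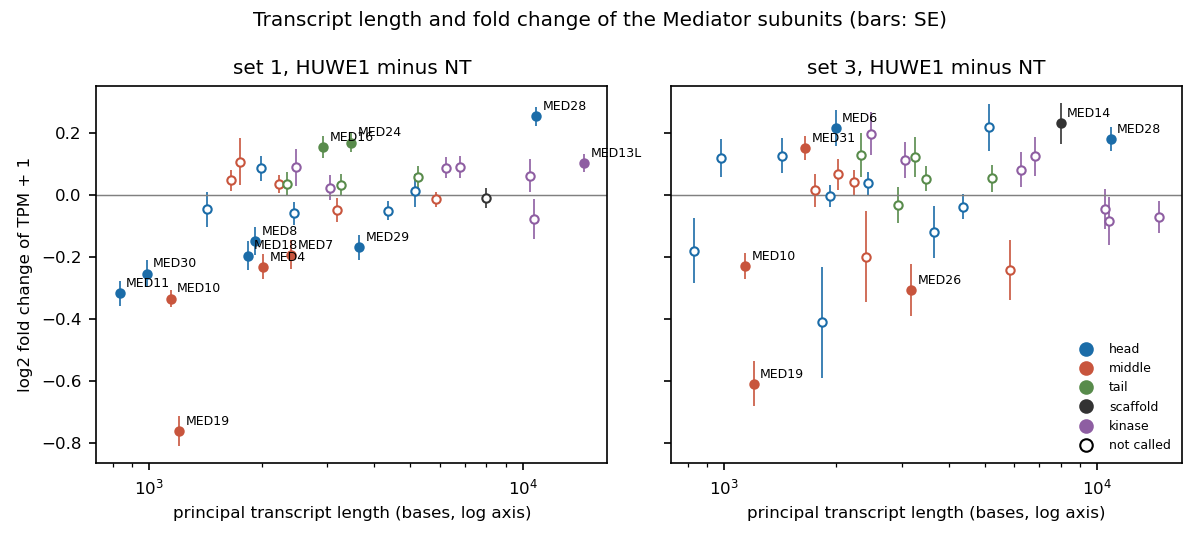
Log2 fold change on the log2(TPM + 1) scale in set 1 and set 3 against the length of the principal transcript in bases (log axis) for the 33 Mediator members, coloured by module, with bars for the SE and filled, named points for adjusted p under 0.05 (limma). In set 1 the 9 members that fell lie at 833 to 3653 bases and the 4 that rose at 2922 to 14615 bases.

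Machinery that works with Mediator was examined through 6 lists, whose counts are read beside the shares of all genes given above (12.3% higher and 17.9% lower in set 1, 7.45% and 4.15% in set 3). In set 1, 4 of 31 preinitiation complex genes rose and 3 fell, among them ERCC2, the TFIIH helicase (log2 fold change 0.26), and TAF5, the TFIID scaffold (-0.32). RNA polymerase II subunits had 1 higher (POLR2A, the catalytic subunit, 0.10) and 4 lower of 12. Pause release and elongation factors had 4 higher and 3 lower of 35. ELL2 and MEPCE were higher, at 0.26 (limma adjusted p = 0.00341) and 0.13 (limma adjusted p = 0.00581). The P-TEFb genes CDK9 and CCNT1 were lower, CDK9 at -0.17 (limma adjusted p = 0.000601) and CCNT1 at -0.23. Cohesin and its loaders had 1 higher and 3 lower of 15, and Integrator had 2 higher and 5 lower of 15, with INTS14 at -0.21 and INTS1 at 0.20. Of 22 Mediator-binding activators tested, 3 rose, such as NOTCH1 (0.28), and 4 fell, such as MYC (-0.18).

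In set 3 the same lists gave 5 higher and 1 lower for the preinitiation complex, 1 and 2 for the polymerase, 3 and 1 for elongation factors, 3 and 0 for cohesin, 0 and 2 for Integrator and 1 and 1 for activators. TAF5 fell again (-0.50, limma adjusted p = 0.0354), TAF12 of TFIID rose (0.33, limma adjusted p = 0.00836), and the cohesin ring subunit SMC1A rose (0.24, limma adjusted p = 0.04). The only elongation factor called lower was EAF1 (-0.14, limma adjusted p = 0.0487), so CDK9 and CCNT1 were not called lower again. INTS14 was lower than the controls in set 3 (-0.15) and lower in set 3 than in set 2 (-0.17, limma adjusted p = 0.0474). In set 2 limma called 0 genes of all 6 lists, with 3, 2, 4, 1, 0 and 2 at an unadjusted p under 0.05.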

How the data were processed

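Polyadenylated, strand-specific libraries of HEK293T cells were sequenced, 4 per group in 5 groups, 8 libraries in one table and 12 in the other. The authors deposited gene-level TPM for each library, on hg38, as the submitters' processing notes name it. For the aligner, the counting tool, its strand setting and the annotation, nothing is given in the sources used here. TPM keeps no read depth, so no counting error was computed.

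Groups were taken from the labels. Each table was fitted alone with limma 3.58.1 in R 4.3.3 on log2(TPM + 1), with a mean trend in the variance, over genes of 1 TPM or more in at least 4 libraries. Sets 2 and 3 and their controls shared 1 fit. P-values were adjusted by Benjamini-Hochberg over all genes tested and called under 0.05. The procedure was tested on simulated data. Single members were also compared by a two-sided exact permutation test of mean TPM.

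HUWE1 and all members were to be described, with the values of every library for members called in any comparison or separated in all 3 sets and for the kinase-module paralogs, and up to 2 called genes per direction of each companion list with the smallest p. For some members called in 1 table only, library values are given for that table alone. The members, modules and lists were chosen with earlier results of these data known. Same-numbered replicates of the groups compared did not deviate together in every pair (correlations of 0.000215 to 0.0521 in set 1, -0.481 to 0.0389 in set 2 and -0.0266 to 0.407 in set 3), so replicate number was not a term of the model. Alternatives were the pseudocount, the filter, scaling, the variance model, the replicate block, the libraries fitted, the threshold and leaving out each library. Transcript lengths and overlaps came from GENCODE release 29, and promoters from RefSeq (GRCh38.p14).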

Additional observations from a re-analysis of the deposited data

Results flagged for a closer look

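Of the genes whose libraries are described one by one in at least 1 set, 22 were checked in all 5 groups. These 110 groups of 4 libraries were checked for a library far from the other 3. Such a library had a gap to its nearest neighbour, as a share of the group's range, above Dixon's 95% critical value. Chance alone marks about 1 in 20 such groups, and 3 were marked, all in the first table. MED12L stood at 4.89 TPM in control replicate 1 of set 1, with the others at 5.85 to 5.98 TPM. MED8 stood at 56.5 TPM in HUWE1 siRNA replicate 1 of set 1, with the others at 51.2 to 52.1 TPM. MED11 stood at 38.9 TPM in that same library, with the others at 35.7 to 36.2 TPM. Without HUWE1 siRNA replicate 1 of set 1, 13 members were called in set 1, as with it.

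A difference between the 2 HUWE1 siRNA sets of the second table, tested as its own contrast, was past the threshold for 2 members. MED4 was higher in set 3 than in set 2, by a log2 difference of 0.45, and MED19 was lower, at -0.52, with 4 of 4 libraries beyond all of the other set in both genes.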

How the results depend on the processing

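No called fold change changed direction under any alternative (0 of 13, 1, 7 and 2 in sets 1, 2, 3 and set 3 against set 2). Of the members not called, 5 of 20, 14 of 32, 4 of 26 and 6 of 31 changed sign under at least 1, among them MED1 and MED14 in set 1 under quantile and median-of-ratios scaling. In set 1 the count of called members, 13, stayed between 11 and 15, with 11 to 13 when 1 library was left out. The set 2 count of 1 (MED4) became 0 without the variance trend, under quantile or median-of-ratios scaling, and when only the 2 groups compared were fitted, and was 0 to 1 when 1 library was left out. The set 3 count of 7 became 4 without a filter on low values, 4 without mitochondrially encoded genes, 1 when only the 2 groups compared were fitted and 11 with control replicates 1 and 4 both left out, and ranged from 1 to 14 when 1 library was left out. The count of 2 for set 3 against set 2 was 2 throughout, the range without 1 library included (2 to 2). Over all genes the set 3 count of 1839 became 698 without a filter, 340 with only the 2 groups and 3226 without control replicates 1 and 4, and the 82 of set 3 against set 2 became 42, 328 and 538. Leaving out 1 library gave 162 to 5874 and 20 to 228 genes. The percentage of calls that were higher, 40.8 in set 1 and 64.2 in set 3, became 51.0 and 52.5 after quantile normalization, 50.5 and 48.9 under median-of-ratios scaling, and 44.3 in set 3 without mitochondrially encoded genes. The cause of these shifts was not tested, beyond the fewer libraries and other genes that an alternative uses by construction.

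With replicate number as a block, members called numbered 11 in set 1 (3 higher and 8 lower), 0 in set 2, 3 in set 3 (1 higher and 2 lower) and 2 in set 3 against set 2, beside 693 and 17 of all genes in the last 2 comparisons. Samples share only a number here: in set 3 replicates 1 and 4 correlated at 0.201 and 0.407 and the others did not, and the same-numbered library was the best correlated in 1, 0, 2 and 0 of 4 replicates of the 4 comparisons, so these counts are no paired analysis.

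Depth is unknown from TPM, and what it limits could not be computed. The precision differed between members: in the second table the SE of the log2 fold change was 0.179 for MED18 and 0.146 for MED7, against 0.0342 for MED8.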
